A study of Saccharomyces cerevisiae with 6 samples.

Results

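Siderophores are small iron-binding molecules that bacteria and fungi release to hold ferric iron in solution. Budding yeast makes none of its own but takes up those of other microbes through the 4 transporters of the ARN family, ARN1, ARN2, SIT1 (also called ARN3) and ENB1 (also called ARN4). The 3 FIT genes encode mannoproteins, heavily mannosylated proteins tied to the cell wall by a GPI anchor, which help the wall to retain siderophore-bound iron. Transcription of all of these genes is known to be raised by the iron-sensing activator AFT1 when iron is scarce. The 7 genes were found by gene symbol in the platform annotation, each with 1 probe, among 6226 features tested (4060 named genes and 2166 unnamed probes).

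Their transcripts were measured in 3 cultures of a flor yeast, which can live as a floating film (velum) on wine, and 3 cultures of a wine yeast, which carries out the fermentation. The flor samples came from the haploid strain P3-D5 of mating type alpha, titled P3_Kan, and the wine samples from the haploid strain K1-280-2B of mating type a, titled K1_Kan. Kan stands for the KanMX drug-resistance cassette, and the titles of both strains carry it. All grew with shaking at 28 °C, in a synthetic medium made to resemble wine, until their optical density (600 nm) reached 1, conditions in which, per the labels, no velum forms. The iron content of that medium is not given in the sources used here. Each yeast type is represented by 1 strain, and mating type differs together with strain, so strain and mating type cannot be told apart. RNA labelled with Cy3 was hybridised to 1-colour arrays, and every value below is the deposited log2 intensity of a probe or a difference of such values, flor minus wine. Intensities of different probes are not read as relative transcript levels of their genes. The share of dimmer features only places a probe within the range of signals, while changes are compared across probes.

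The mating types followed the labels, with all 7 a-specific genes lower and all 4 alpha-specific genes higher in the flor strain. Flor replicate 1 stood apart from the other flor samples, with a correlation across features as low as 0.9877 within the flor strain, against at least 0.9971 within the wine strain, so changes are also given without it. The median SD among replicates was 0.131 for flor and 0.0772 for wine over all features. In the 7 genes it ran between 0.0226 and 0.185 for flor and between 0.023 and 0.18 for wine. The number of arrays limits precision, and p-values reflect how far these cultures differ among themselves. The labels describe the origin of the cultures only as biological replicates, except that 1 sample of each strain is also titled a technical replicate. Within its strain, no other sample carries the same biological replicate number, and what was repeated is not stated in the labels.

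The siderophore uptake genes ARN1, SIT1, FIT1, FIT2 and FIT3 were lower in the flor strain, by 4.30-fold for ARN1 down to 1.43-fold for FIT2. ARN2 was slightly higher, by 1.20-fold, and ENB1 did not pass the test. In counts, 5 of 7 genes were lower and 1 of 7 was higher at an adjusted p under 0.05 (limma, Benjamini-Hochberg over all 6226 features), where 23.6% of all features were lower, 20.5% were higher and 44.1% passed in either direction. The 3 values of one strain lay entirely on one side of those of the other in 6 of the 7 genes, as in 56.1% of all features. At least 2-fold lower levels were found for 3 of the 7, ARN1, SIT1 and FIT1, against 2.54% of all features. The median log2 change was −0.87 over the 7 genes and −0.02 over all features.

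**Figure D1:**
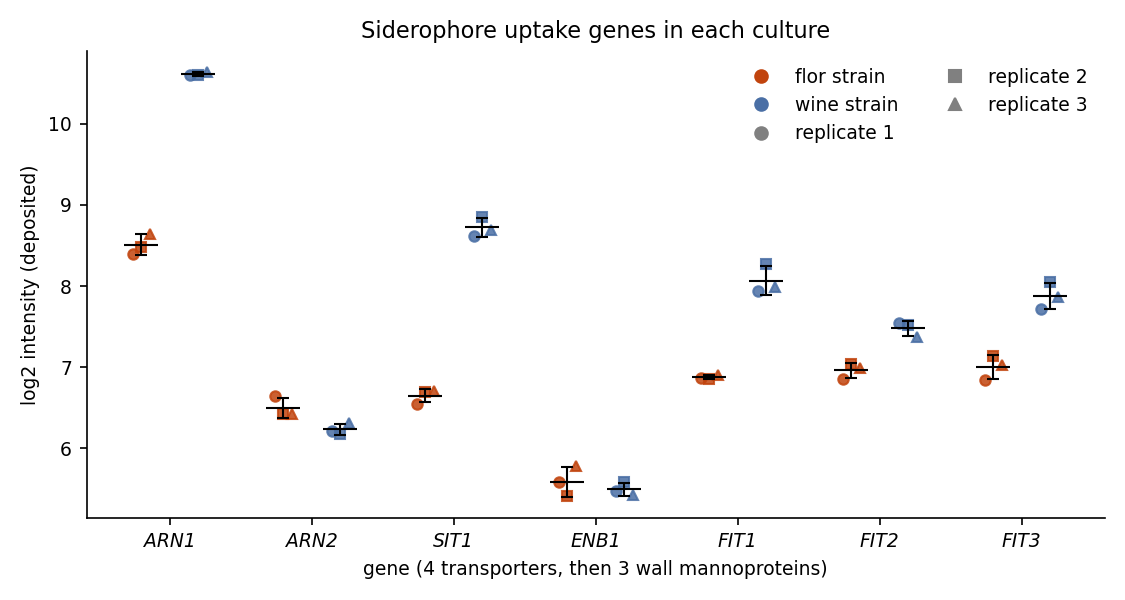
Deposited log2 intensity of each gene (y axis) in each culture, with flor in red on the left and wine in blue on the right of each gene, replicates 1, 2 and 3 as circle, square and triangle, and the mean with its SD (n = 3) as a black dash and bars. The flor values lie below the wine values for ARN1, SIT1, FIT1, FIT2 and FIT3, above them for ARN2, and among them for ENB1.

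ARN1 transports ferrichrome-type siderophores, the hydroxamates made by many fungi. Its log2 intensity was 8.39, 8.48 and 8.65 in flor replicates 1, 2 and 3, against 10.60, 10.60 and 10.64 in wine replicates 1, 2 and 3. All flor values lay at least 1.95 below the lowest wine value, a gap far wider than the range within flor (0.253) or wine (0.043). ARN1 was 4.30-fold lower in the flor strain (95% interval 3.76 to 4.93), a log2 change of −2.11 ± 0.086 (SE), with a limma adjusted p of 2.7e-07. It ranked 29 of 6226 features counted from the lowest change. The flor mean of 8.51 ± 0.13 (SD, n = 3) still lay above 53.5% of the features of that strain, and the wine mean of 10.61 ± 0.02 (SD, n = 3) above 85.5%.

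SIT1 carries ferrioxamine B, a bacterial siderophore, and also takes up ferrichromes. It read 6.55, 6.70 and 6.70 in flor replicates 1, 2 and 3, against 8.62, 8.86 and 8.69 in wine replicates 1, 2 and 3. The strains were again fully apart, by 1.92 between the nearest values. SIT1 was 4.21-fold lower in the flor strain (95% interval 3.65 to 4.85), a log2 change of −2.07 ± 0.090 (SE), with a limma adjusted p of 3.9e-07, and ranked 31 of 6226 from the lowest change. The intervals of the SIT1 and ARN1 changes overlap over most of their length. In the flor strain only 18.0% of features were dimmer than SIT1 on average, against 57.9% in the wine strain, and background at low intensity can make a fold read smaller than it is.

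ARN2, the transporter of triacetylfusarinine C, differed in the opposite direction and by far less. It read 6.64, 6.42 and 6.43 in flor replicates 1, 2 and 3, against 6.21, 6.18 and 6.31 in wine replicates 1, 2 and 3. Flor replicate 1 gave the highest value, and the nearest values of the strains were 0.111 apart, less than the range within flor (0.220). The signal was low in both strains, with 16.2% of flor and 13.4% of wine features dimmer on average. The change was 0.26 ± 0.089 (SE) on the log2 scale, or 1.20-fold (95% interval 1.04 to 1.38) towards flor, with a limma adjusted p of 0.040. This call was lost without flor replicate 1 (0.19, adjusted p = 0.050), flor replicate 3 (0.30, 0.058) or wine replicate 1 (0.25, 0.12), 2 (0.24, 0.13) or 3 (0.30, 0.065), and with the array number as a block (adjusted p = 0.052).

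ENB1 is the transporter of enterobactin, the catecholate siderophore of enteric bacteria. Its values were 5.58, 5.41 and 5.78 in flor replicates 1, 2 and 3, against 5.47, 5.58 and 5.43 in wine replicates 1, 2 and 3. The strains overlapped, and the lowest and the highest of the 6 values both belonged to the flor strain. The log2 change was 0.10 ± 0.10 (SE), with an interval of the fold of 0.906 to 1.26 and a limma adjusted p of 0.50. Only 3.50% of flor and 1.32% of wine features were dimmer on average, so the probe lay close to the dimmest signals in both strains and the interval may not bound a difference in transcript level. No detection calls were used, and ENB1 is not called absent.

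Among the wall mannoproteins, FIT1 showed the widest difference. It read 6.87, 6.86 and 6.90 in flor replicates 1, 2 and 3, against 7.94, 8.27 and 7.99 in wine replicates 1, 2 and 3. The flor values lay within 0.0444 of each other, the wine values within 0.334, and the nearest values of the strains were 1.04 apart. FIT1 was 2.28-fold lower in the flor strain (95% interval 1.95 to 2.67), a log2 change of −1.19 ± 0.099 (SE), with a limma adjusted p of 2.4e-05. It ranked 107 of 6226 from the lowest change.

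FIT3 had log2 intensities of 6.84, 7.13 and 7.03 in flor replicates 1, 2 and 3, against 7.72, 8.04 and 7.86 in wine replicates 1, 2 and 3. The strains did not overlap, with 0.585 between the nearest values, wider than the range within flor (0.291) or wine (0.326). FIT3 was 1.83-fold lower in the flor strain (95% interval 1.54 to 2.18), a log2 change of −0.87 ± 0.11 (SE), with a limma adjusted p of 0.0003.

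FIT2, the neighbour of FIT3 on chromosome XV, read 6.86, 7.04 and 6.98 in flor replicates 1, 2 and 3, against 7.55, 7.52 and 7.37 in wine replicates 1, 2 and 3. The gap between the nearest values was 0.329, against ranges of 0.183 within flor and 0.180 within wine. FIT2 was 1.43-fold lower in the flor strain (95% interval 1.25 to 1.64), a log2 change of −0.52 ± 0.087 (SE), with a limma adjusted p of 0.0015. The interval of the FIT2 fold lies wholly below that of FIT1 and overlaps that of FIT3. The difference in change between FIT genes was not tested. In the flor strain only 21.0% of features were dimmer than FIT1 on average, 22.5% than FIT2 and 23.2% than FIT3. In the wine strain these shares were 43.9%, 31.1% and 39.4%. As for SIT1, background at low intensity can make these folds read smaller than they are.

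**Figure D2:**
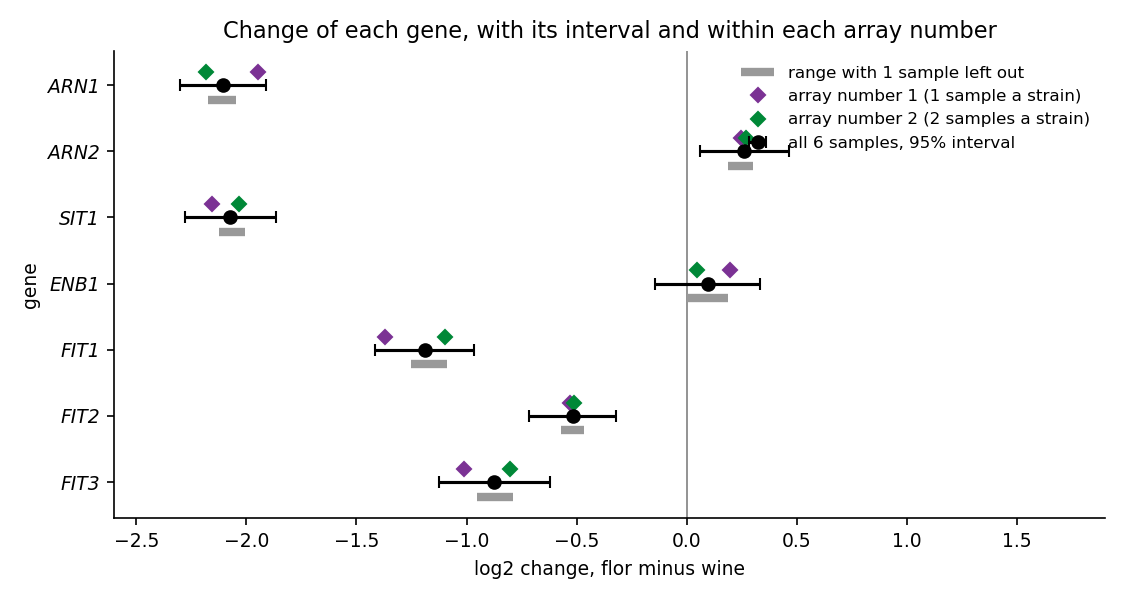
Log2 change, flor minus wine (x axis), of each gene with its 95% interval over all 6 samples (black), the difference within array number 1 (purple, 1 sample per strain) and within array number 2 (green, 2 samples per strain), and the range over the 6 fits that each leave out 1 sample (grey bar). The 5 lower genes lie below 0 on every measure, and the 95% interval of ENB1 spans 0.

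The differences held their direction on both array numbers given in the labels. On array number 1, which held flor replicate 3 and wine replicate 2, the log2 changes were −1.95 for ARN1, −2.15 for SIT1, −1.37 for FIT1, −1.01 for FIT3 and −0.53 for FIT2. On array number 2, with 2 samples of each strain, they were −2.18, −2.03, −1.10, −0.80 and −0.51 in the same order. ARN2 was at 0.25 on array number 1 and 0.27 on array number 2, and ENB1 at 0.20 and 0.05. With the array number as a block the 5 lower genes kept their calls, with limma adjusted p between 2.6e-06 and 0.0039. Without flor replicate 1 they did so too, at log2 changes of −2.05 for ARN1, −2.02 for SIT1, −1.19 for FIT1, −0.79 for FIT3 and −0.47 for FIT2. That omission raised the share of all features called to 52.7%.

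Within each strain the small differences between cultures were shared by some of the genes. Flor replicate 1 was the lowest of the flor samples for ARN1, SIT1, FIT2 and FIT3, with deviations from their flor means of −0.16 to −0.0985, and the highest for ARN2. Wine replicate 2 was the highest of the wine samples for SIT1, ENB1, FIT1 and FIT3, by 0.0865 to 0.205 over their wine means, and the lowest for ARN1 and ARN2. These deviations are small beside the strain differences of ARN1, SIT1, FIT1 and FIT3, but not beside the ARN2 difference. How often the same samples were lowest or highest over all features was not counted, so no pattern particular to the 7 genes is claimed.

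**Figure D3:**
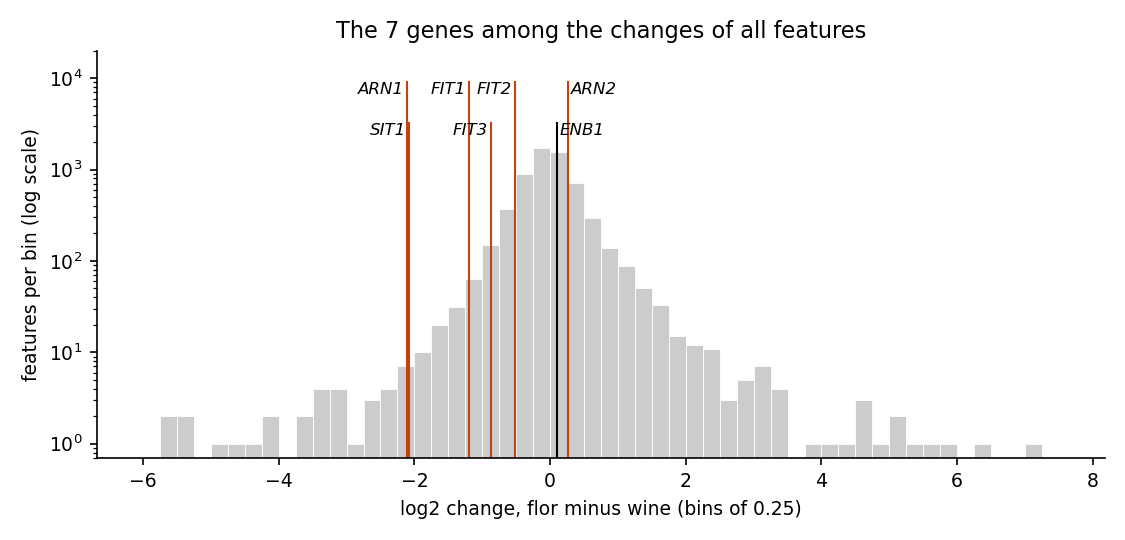
Number of features per bin of log2 change, flor minus wine (bars, log-scaled y axis), with the 7 genes as vertical lines, red where the adjusted p was under 0.05 and black for ENB1. ARN1 and SIT1 stand in the lower tail, at −2.11 and −2.07, while ARN2 and ENB1 stand near the centre.

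By the smallest Euclidean distance between centred log2 values over the 6 samples, ARN1 and SIT1 were among the 3 nearest named genes of each other, at a distance of 0.221. For both, ICL2, a mitochondrial lyase of propionate breakdown, was the nearest (0.198 for ARN1 and 0.119 for SIT1), and DSE4, a glucanase of daughter-cell separation, was also among the 3. The nearest to FIT1 were TNA1, the nicotinic acid permease (0.196), ATO2, of a family of ammonium and acetate transporters (0.197), and SGE1, a drug exporter (0.212). The nearest to FIT2 were TUB3 (0.0870), TIF5 (0.0929) and PUS2 (0.108), those to FIT3 UBP3 (0.142), CYS4 (0.143) and ASN2 (0.147), and those to ARN2 SCM3 (0.0535), MSP1 (0.0642) and RNT1 (0.0722). No FIT gene was among the 3 nearest of another FIT gene. These distances rest on 6 samples of 2 strains and mostly measure the size of the strain difference.

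All 7 genes lie near chromosome ends in the gene order of the R64 reference, with between 4 genes (ARN2) and 13 genes (FIT2) from the nearest end. Of the 19 nearest measured named genes beside them, 7 were higher in the flor strain and 2 lower (47.4% called, against 44.1% of all features). SIT1 has next to it HPA3, an acetyltransferase gene, which was higher by a log2 change of 1.56 ± 0.12 (SE; limma adjusted p = 2e-05). On its other side CAN1, the arginine permease, did not pass (−0.05, adjusted p = 0.76), nor did NPR2 (0.02, adjusted p = 0.86). Next to FIT1 lies STL1, the glycerol symporter, which was lower by a log2 change of −3.37 ± 0.12 (SE; adjusted p = 8.2e-08), more than FIT1 itself, while PAD1, a decarboxylase of phenylacrylic acids, was higher (1.05) as was KRE28 (0.64). Between ARN2 and ARN1, ECM34 did not pass (−0.14, adjusted p = 0.38), and beyond ARN1 the splicing factor CBP2 was lower (−0.34) and the methionine permease MUP3 higher (0.70). CBP2 did not pass on array number 2 alone (adjusted p = 0.087). The other neighbours that were higher were COS8 beside ARN2 (0.46, adjusted p = 0.0042, but 0.0544 on array number 2 alone), ZPS1, a zinc-responsive wall protein gene, beside ENB1 (0.92, adjusted p = 0.00035), and RDR1 beside FIT2 (0.35, adjusted p = 0.0094). HXT13 beside SIT1 (0.09), AAD15 (0.02) and HXT11 (0.01) beside ENB1, APA2 beside FIT1 (−0.14) and PHR1 beside FIT3 (0.16) did not pass, with adjusted p between 0.20 and 0.96. Removal of a trend on coding length brought PHR1 (adjusted p = 0.0345) and ECM34 (0.034) past the threshold, while CBP2 lost its call (0.082).

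**Figure D4:**
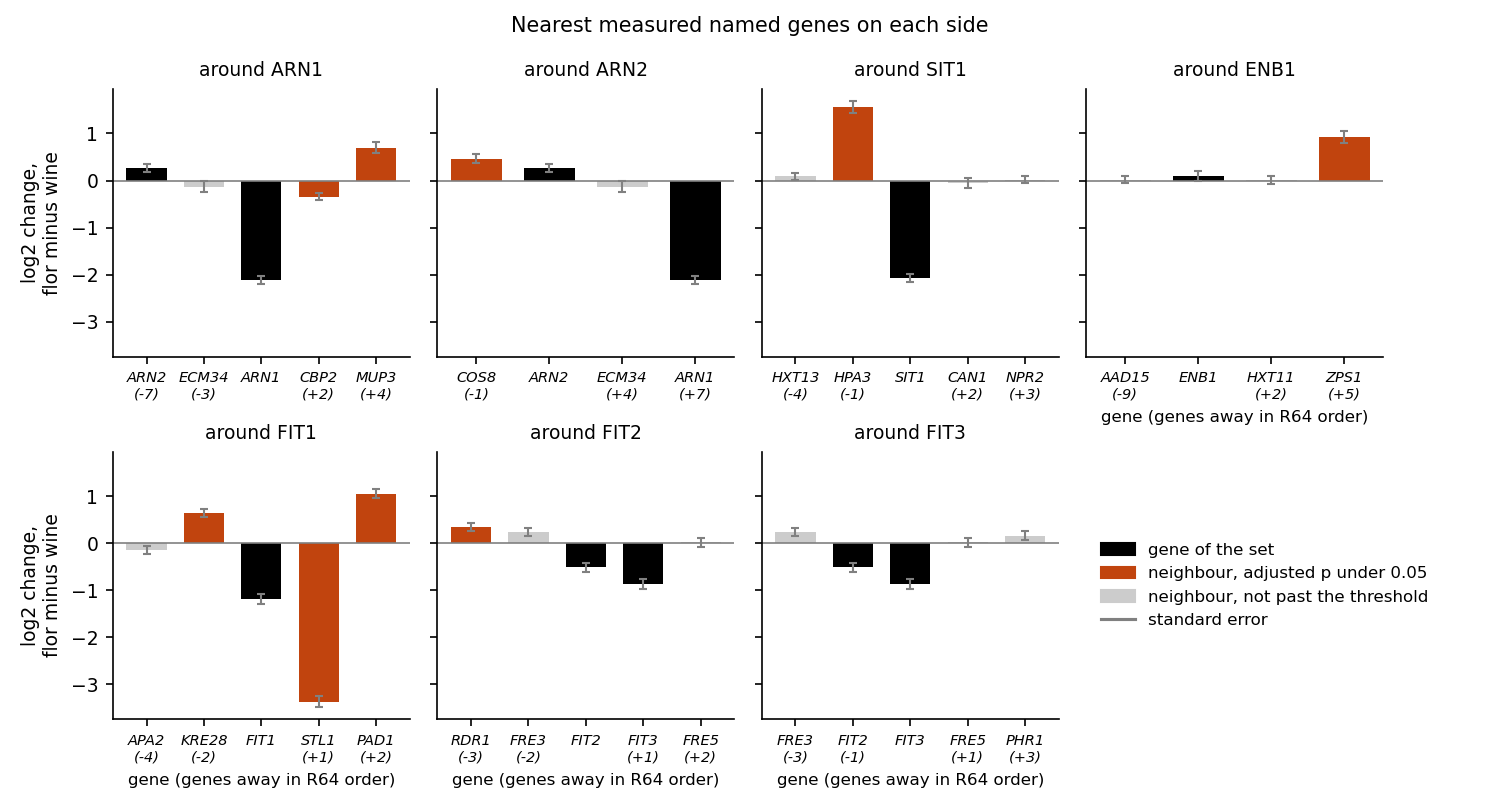
Log2 change, flor minus wine, with its standard error, of each gene (black) and of its 2 nearest measured named genes on each side in R64 gene order (red where the adjusted p was under 0.05, grey otherwise, black for genes of the set). The number under a gene is how many genes away it lies, negative towards lower positions. ENB1 has 1 such gene on one side and ARN2 has 1, because no further named gene was measured there.

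FIT2 and FIT3 lie between FRE3, a reductase of siderophore-bound iron, and FRE5, a putative ferric reductase. FRE3 read 6.67, 6.62 and 6.58 in flor replicates 1, 2 and 3, against 6.42, 6.50 and 6.23 in wine replicates 1, 2 and 3. Its strains did not overlap, in the direction opposite to the FIT genes, but it did not pass the test (log2 change 0.24 ± 0.090, limma adjusted p = 0.058). FRE3 did pass with an intensity trend and robust eBayes (adjusted p = 0.0355), with the replicate number as a block (0.0449) and after removal of a trend on coding length (0.00964). Its signal was low, with 17.7% of flor and 15.0% of wine features dimmer on average. FRE5 gave signals among the dimmest in both strains (5.49 ± 0.16 in flor and 5.47 ± 0.07 in wine, SD, n = 3 each) and did not pass (0.02, adjusted p = 0.89).

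The other route of iron uptake, in which surface reductases release ferrous iron for the FET3 oxidase and FTR1 permease complex, had 3 of 10 genes lower and 1 higher in the flor strain, a share near the 44.1% of all features that passed, with a median log2 change of −0.04. The reductase gene FRE1 was 2.72-fold lower, at 8.44, 8.10 and 8.12 in flor replicates 1, 2 and 3, against 9.65, 9.76 and 9.58 in wine replicates 1, 2 and 3 (adjusted p = 1.3e-05). FET3 was 2.52-fold lower, at 7.89, 7.62 and 8.04 in flor, against 8.99, 9.30 and 9.24 in wine (adjusted p = 5.5e-05). FTR1 was 1.53-fold lower (log2 change −0.61, adjusted p = 0.0015), and FRE4, a reductase with a role in the use of a siderophore, was higher (0.48; adjusted p = 0.0024), though not on array number 2 alone (adjusted p = 0.051).

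Of 7 measured regulators of iron use, 4 were lower and 1 was higher, where 23.6% of all features were lower and 20.5% higher. Their median log2 change was −0.30. AFT1 itself read 6.58, 6.94 and 6.89 in flor replicates 1, 2 and 3, against 7.29, 7.36 and 7.42 in wine replicates 1, 2 and 3. It was 1.47-fold lower in the flor strain (95% interval 1.24 to 1.74; log2 change −0.55, limma adjusted p = 0.0031), and its strains did not overlap. Its signal was low, with 19.9% of flor and 28.9% of wine features dimmer on average than AFT1. Its relative AFT2 did not pass (−0.09, adjusted p = 0.52), and neither did YAP5, the activator of responses to high iron (0.02, adjusted p = 0.91). The glutaredoxins GRX3 and GRX4, which together restrain AFT1 when iron is plentiful, differed in opposite directions, with GRX3 lower (−0.49, adjusted p = 0.0018) and GRX4 higher (0.67, adjusted p = 0.0016). CTH1 (−0.33) and TIS11 (−0.30), RNA-binding proteins that promote decay of transcripts for iron-using proteins, were lower. Without wine replicate 1, CTH1 did not pass (adjusted p = 0.068) and neither did TIS11 (0.0765), which left 2 of the 7 lower. TIS11 also failed without wine replicate 3 (0.067), and its signal was low, with 16.1% of flor and 19.9% of wine features dimmer on average.

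Other target genes of AFT1 did not share one direction. Of 6, HMX1 and BNA2 were higher and COT1, ECM4 and ISU2 lower, with a median log2 change of −0.12. Over all features 20.5% were higher and 23.6% lower. HMX1, the haem oxygenase that frees iron from haem, read 10.43, 10.69 and 10.50 in flor replicates 1, 2 and 3, against 8.47, 8.51 and 8.41 in wine replicates 1, 2 and 3. It was 4.23-fold higher in the flor strain (limma adjusted p = 3.5e-07), a log2 change of 2.08 that is as large as those of ARN1 and SIT1 but in the opposite direction. BNA2, of nicotinamide adenine dinucleotide (NAD) synthesis, was higher by a log2 change of 1.18 ± 0.18 (SE; adjusted p = 0.00098). The vacuolar zinc transporter COT1 was lower (−0.71, adjusted p = 0.0002), as were ECM4 (−0.57, adjusted p = 0.0017) and ISU2 (−0.31, adjusted p = 0.030). ISU2 did not pass without flor replicate 3 (adjusted p = 0.070) or wine replicate 1 or 2 (0.12 each). Its signal was low, with 15.7% of flor and 19.5% of wine features dimmer on average.

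Of 7 measured genes of low-affinity, vacuolar and mitochondrial iron transport, 3 were lower and 1 higher, with a median log2 change of −0.25. Of all features, 23.6% were lower and 20.5% higher. The mitochondrial carriers MRS3 (−1.27, adjusted p = 8.4e-06) and MRS4 (−0.44, adjusted p = 0.0032) and the metal transporter SMF1 (−0.66, adjusted p = 0.00047) were lower. The vacuolar exporter SMF3 was higher (0.25, adjusted p = 0.049), a call lost without any 1 sample other than flor replicate 1 (adjusted p between 0.053 and 0.17). A further 12 measured genes encode iron-sulphur and haem proteins and enzymes that make them. Their median was −0.12, and 44.1% of all features passed in either direction. Of the 12, ILV3 (−0.52), RLI1 (−0.48) and HEM15 (−0.38) were lower and LEU1 (0.36) was higher. RLI1 alone of these kept its call in each fit with 1 sample left out: HEM15 failed once wine replicate 1 was omitted (adjusted p = 0.051), ILV3 without wine replicate 1, 2 or 3 (0.067, 0.069 and 0.11) and LEU1 without flor replicate 2 or 3 (0.089 and 0.11) or wine replicate 2 or 3 (0.13 and 0.065).

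**Figure D5:**
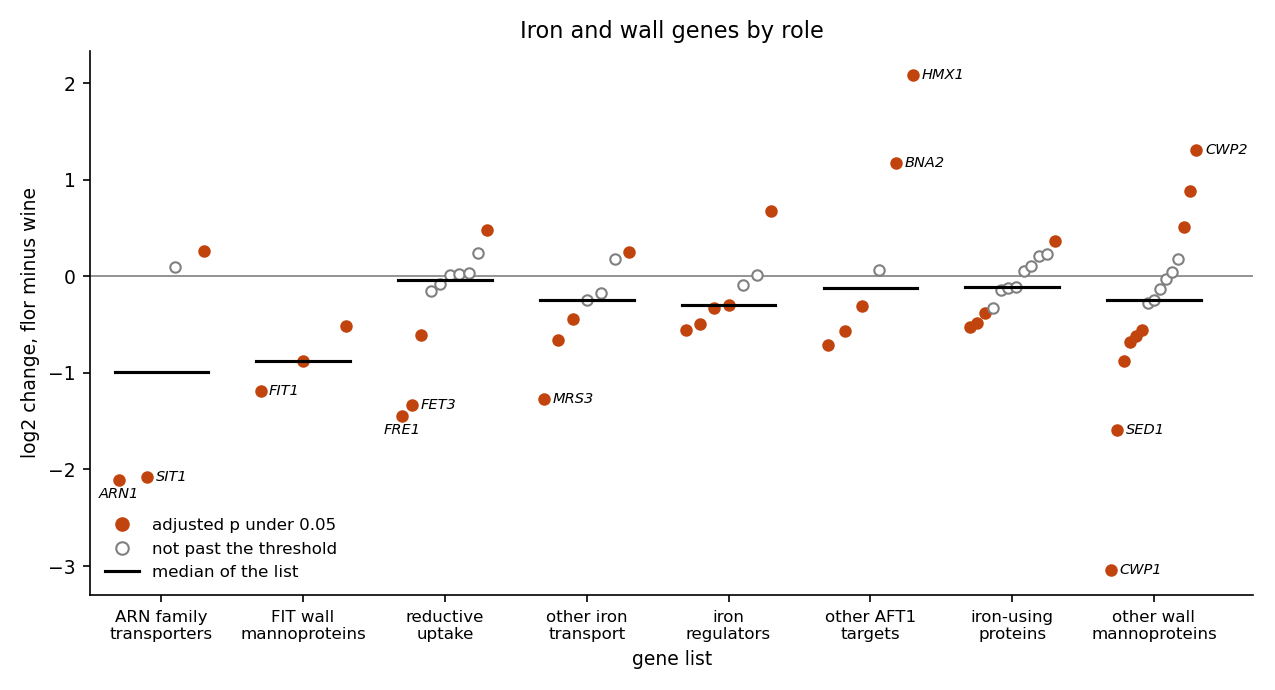
Log2 change, flor minus wine (y axis), of each measured gene of the ARN and FIT groups and of 6 further lists of iron and wall genes, filled where the adjusted p was under 0.05, with the list median as a black line and names for changes of at least 1 in size. All 3 FIT genes lie below 0, while the other lists hold genes on both sides of 0.

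The FIT genes were also set beside a list of 15 other wall mannoprotein genes, of which the flor strain had 6 lower and 3 higher. Its entries DAN2 and DAN3 were measured under the names PAU23 and PAU24, of the PAU seripauperin family. Both were among the 3 higher, and whether their proteins carry a GPI anchor was not checked. Over all features 23.6% were lower and 20.5% higher. The median log2 change of the 15 was −0.25, against −0.87 for the FIT genes. CWP1 was 8.24-fold lower (adjusted p = 3.3e-08) and SED1 3.00-fold lower (adjusted p = 7.3e-06). CWP2 was higher by a log2 change of 1.31 ± 0.088 (SE; adjusted p = 6.6e-06), and PAU24 by 0.88 ± 0.13 (SE; adjusted p = 0.00081). PAU23 was higher by 0.51 ± 0.13 (SE; adjusted p = 0.013), but did not pass without flor replicate 3 (adjusted p = 0.052). The ARN and FIT genes are families of related sequence, and probe sequences were not used here, so whether a probe also reads a relative's transcript was not tested. Whether both strains carry the same sequence at each probe, or the same gene copies, was not tested either.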

How the data were processed

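The deposited values are the authors' log2 intensities of 6227 probes in 6 samples (1-colour Cy3 arrays, per the labels' protocols). The log2 scale was read from their range, 5.285 to 15.88, and the columns have nearly one distribution (medians 8.328 to 8.352), so they had been normalized between samples and every change is relative to the other features. R 2.14.2 with limma is named in the submitters' processing notes. How background was corrected, how samples were normalized and what was filtered is not given in the sources used here. Probes were named from the platform annotation (4061 with 1 symbol, 0 with several, 2166 with none), 125 symbols were updated through the R64 gene table, and the 2 probes of FDH2 were averaged. Of the listed genes, GEX1, GEX2, FTH1, FRA1, BOL2 and TYW1 had no probe named for them.

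A model of strain means was fitted to all 6 samples with limma 3.58.1 (lmFit, eBayes) in R 4.3.3, two-sided, with Benjamini-Hochberg adjustment over 6226 features, a threshold of 0.05 and no intensity filter. Exact permutation of 3 against 3 samples gives no p under 0.1 and was not used. The fit was tested on simulated data. The fit was repeated after quantile normalization, after centring (median, 75th percentile), without the dimmest 25% or 50% of features, with robust eBayes and an intensity trend, with the labels' array number or the replicate number as a block, on array number 2 alone, after subtraction of a loess on coding length (span 0.5), with unaveraged probes, at a threshold of 0.01, and with each sample left out. The 7 genes and all lists were chosen with earlier results of these data known. The text names all 7, all measured regulators, up to 4 changed genes of each other list, the 2 nearest named genes on each side (FRE3 and FRE5 among them) and the 3 nearest in pattern. ISU2 and PAU23 were added after their values were seen, each to complete a count. No sequences were used.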

Additional observations from a re-analysis of the deposited data

How the results depend on the processing

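ARN1, SIT1, FIT1, FIT2 and FIT3 kept their direction and their call in each alternative in which they were tested (18 for ARN1 and 17 for each of the others), with log2 changes of −2.18 to −1.98, −2.13 to −1.95, −1.25 to −1.09, −0.69 to −0.47 and −0.97 to −0.79. ENB1 never passed (0.00 to 0.22). ARN2 (0.19 to 0.39) lost its call in 8 of 16 alternatives, 5 of them omissions of 1 sample, with array number 2 alone at an adjusted p of 0.18. Of the 7 genes, 5 or 6 passed with 1 sample left out, and 2040 to 3279 of all features did. Only 1 of the 7 passed without the dimmest 50% of features, a filter that retains ARN1 alone of the 7. That filter left 1543 features called, array number 2 alone 1424, and an adjusted p under 0.01 left 1761. With the replicate number as a replicate block 6 of the 7 and 2973 features passed. Deviations of same-numbered samples correlated at 0.372, 0.228 and 0.0507 for numbers 1, 2 and 3. The main fit did not pair them, and whether they share more than a number was not tested. Removal of a trend on coding length, over features with a known length, moved ARN2 to 0.39 and FIT2 to −0.69. Depth in the sense of counts does not apply, and low signal limits ENB1 and ARN2, and in the flor strain also SIT1, FIT1, FIT2 and FIT3.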
